A study of Homo sapiens with 2 samples.

Results

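The ZNF zinc finger genes are the human protein-coding genes whose symbol is ZNF followed by a number and, in some, a letter. They were taken by that symbol alone from lists of alternative splicing events in AC16 cells, a human cell line labelled as cardiomyocytes. Of the 8028 gene identifiers with an event, 211 were ZNF genes, and GENCODE release 29 holds 509 such genes, so 41.5% of them had an event and 298 had none. The groups were DCRT-KO cells, in which the long non-coding RNA DCRT was removed by CRISPR-Cas9 editing, and WT cells of the same line, untreated in both cases as far as the labels say. Each genotype had 1 library, and the labels do not give the number of knockout clones. The study asked how losing DCRT changes alternative splicing. Its design text names PacBio long-read isoform sequencing, while the extraction text names paired Illumina reads; the event lists hold long-read isoforms. The lists carry no expression level, so the knockout itself was not checked here.

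ZNF proteins bind DNA through tandem C2H2 zinc fingers, each a short loop held by a pair of cysteines and a pair of histidines around a zinc ion. A finger with its linker takes 84 bases of coding sequence, and in most ZNF genes all fingers lie in the last coding exon. Many ZNF proteins also carry a KRAB domain near the N-terminus, encoded by exons upstream of the fingers, which recruits the corepressor TRIM28 and through it the histone methyltransferase SETDB1. KRAB zinc finger genes stand in clusters, above all on chromosome 19, and many of them silence transposable elements. Of the 211 genes, 145 had a KRAB domain in an annotated coding transcript, which is 43% of the 337 annotated ZNF genes with one, and the other 66 were 38.4% of the 172 without one. A C2H2 pattern was found in 207 of the 211, the exceptions being ZNF185, ZNF330, ZNF451 and ZNF839. The median was 11 fingers and the most 25, and the finger exon was the last coding exon in 182 genes.

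An event is a stretch of a gene that is spliced in 2 forms, and each form is listed with the library isoforms and annotated transcripts that carry it. DCRT-KO cells had 572 ZNF events in 165 genes and WT cells had 507 in 162 genes. These were 1.34% of the 42783 events of the DCRT-KO list (95% exact interval 1.23 to 1.45%) and 1.44% of the 35307 events of the WT list (1.31 to 1.57%). The DCRT-KO over WT ratio of ZNF events was 1.13 (0.999 to 1.27), against 1.21 (1.2 to 1.23) for all other events. With 1 library per genotype there is no test between genotypes. Intervals here cover counting error only, and events of a gene share isoforms, so they are narrower than the true uncertainty. Fewer cells carrying an isoform and fewer copies per cell cannot be told apart in these lists.

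ZNF events were thinly supported in both libraries. ZNF genes had 3.47 events per gene in DCRT-KO cells and 3.13 in WT cells, against 6.38 and 5.53 for other genes. Library isoforms carried both forms of 374 events in DCRT-KO cells, 65.4% (61.3 to 69.3%), and of 327 in WT cells, 64.5% (60.2 to 68.7%); among other events the shares were 85.6% and 85.1%. Events formed by annotated transcripts alone made up 11% of the ZNF events in DCRT-KO cells and 9.86% in WT cells, against 3.34% and 3.31% elsewhere. At least 2 library isoforms on each form were found for 40 and 34 ZNF events. Totals per gene ran from 1 to 46 events with a median of 3; 59 genes had 1 event, and the 34 genes with at least 10 held 51.4% of the 1079 events.

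The lists also differ in markers of cell types, which cannot be told apart from the genotype here. Of 19 heart muscle markers, 2 had any event, NPPB and MYL3, with 0 events in DCRT-KO cells and 3 in WT cells, and TNNT2, MYH6, MYH7 and ACTN2 had 0 in both. Of 15 fibroblast and matrix markers, 12 had events, 17 in all in DCRT-KO cells and 557 in WT cells, of which COL1A1 held 1 and 405. Of 8 epithelial markers, 4 had events, 80 in DCRT-KO cells and 23 in WT cells. Of 5 endothelial markers 1 had an event, in WT cells; the part of these differences in the ZNF results was not tested.

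Exon skipping made up a larger share of events in ZNF genes than in the rest of the lists, and intron retention a smaller one. Skipping events numbered 293 in DCRT-KO cells, 51.2% of the ZNF events (47 to 55.4%), and 255 in WT cells, 50.3% (45.9 to 54.7%), against 39.6% and 34.3% of all other events. Retention events numbered 100 in DCRT-KO cells, 17.5% (14.5 to 20.8%), and 89 in WT cells, 17.6% (14.3 to 21.2%), against 28.7% and 35.4%. Among events with library isoforms on each form, the skipping shares of ZNF genes were 47.1% and 43.4%, against 37.6% and 31.7% elsewhere, and the retention shares were 22.2% and 23.9%, against 30.6% and 38.2%.

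Between genotypes, the ZNF shares of skipping and of retention lay within each other's intervals, while among all other events the retention share was lower in DCRT-KO cells than in WT cells. Alternative acceptors numbered 84 in DCRT-KO cells and 83 in WT cells, alternative donors 74 and 52, and mutually exclusive exons 21 and 28. The ratio for skipping was 1.15 (0.968 to 1.36) in ZNF genes and 1.4 elsewhere, and that for retention was 1.12 (0.836 to 1.51) in ZNF genes and 0.985 elsewhere. For mutually exclusive exons it was 0.75 (0.405 to 1.37) in ZNF genes and 1.55 (1.44 to 1.66) elsewhere, and these intervals do not overlap. The counts are small and lean in part on ZNF655, the ZNF gene with most events. Mutually exclusive exons made up 3.67% of the ZNF events in DCRT-KO cells and 5.52% in WT cells. Without ZNF655 the shares were 3.24% and 4.18%. The ratio without it was not computed, so the intervals are not shown to stay apart without this gene. Of the mutually exclusive exon events of ZNF genes, 0 had at least 2 library isoforms on each form. For acceptors the ratio was 1.01 (0.738 to 1.39) against 1.23, and for donors 1.42 (0.985 to 2.07) against 1.23.

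**Figure D1:**
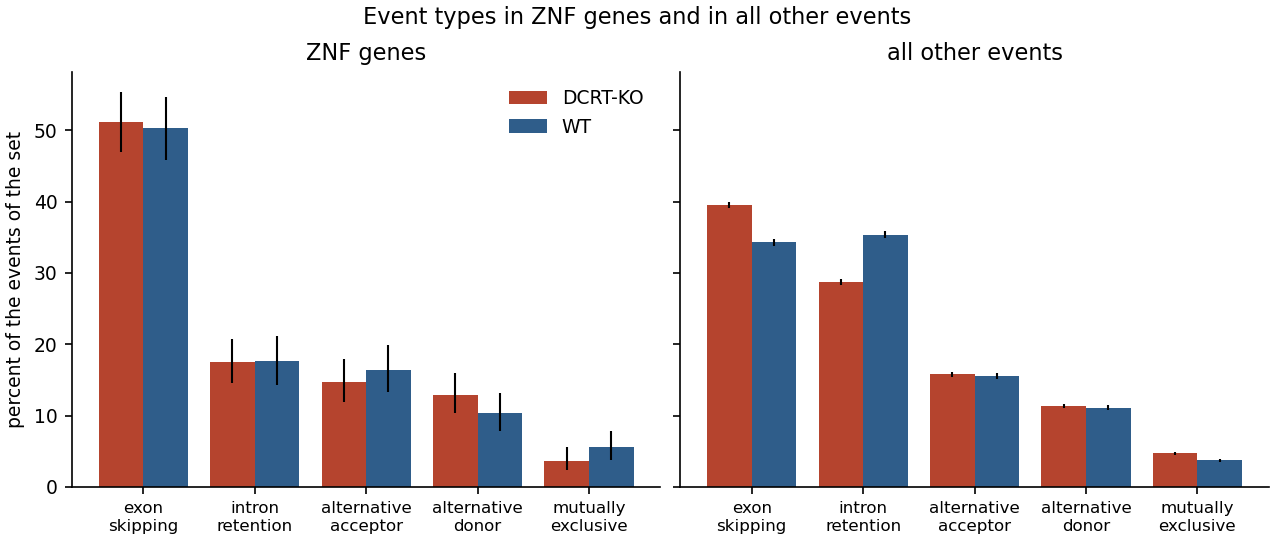
Share of each event type, in percent of the events of the set, in DCRT-KO (red) and WT (blue) libraries, for ZNF genes on the left and all other events on the right; bars are shares in 1 library each and lines are 95% exact binomial intervals. Exon skipping holds 51.2% and 50.3% of the ZNF events, against 39.6% and 34.3% of the others.

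The most common length of skipped exons of ZNF genes was 127 bases. Among 399 distinct skipped exons of both libraries, 24 were 127 bases long, 6.02% (3.89 to 8.82%), while the next most common lengths, 89 and 118 bases, had 7 exons each. In all other genes 96 of 20992 distinct skipped exons had 127 bases, 0.457% (0.371 to 0.558%). All 24 lay in genes with a KRAB domain, and 0 of the 142 distinct skipped exons of the other ZNF genes had this length, with an exact upper limit of 2.56%. The length is that of the exon that encodes the core of the KRAB domain: of 418 such exons in the annotation, 319 (76.3%) have 127 bases. The share of this length among all exons of ZNF genes was not computed, so no preference in skipping is shown.

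**Figure D2:**
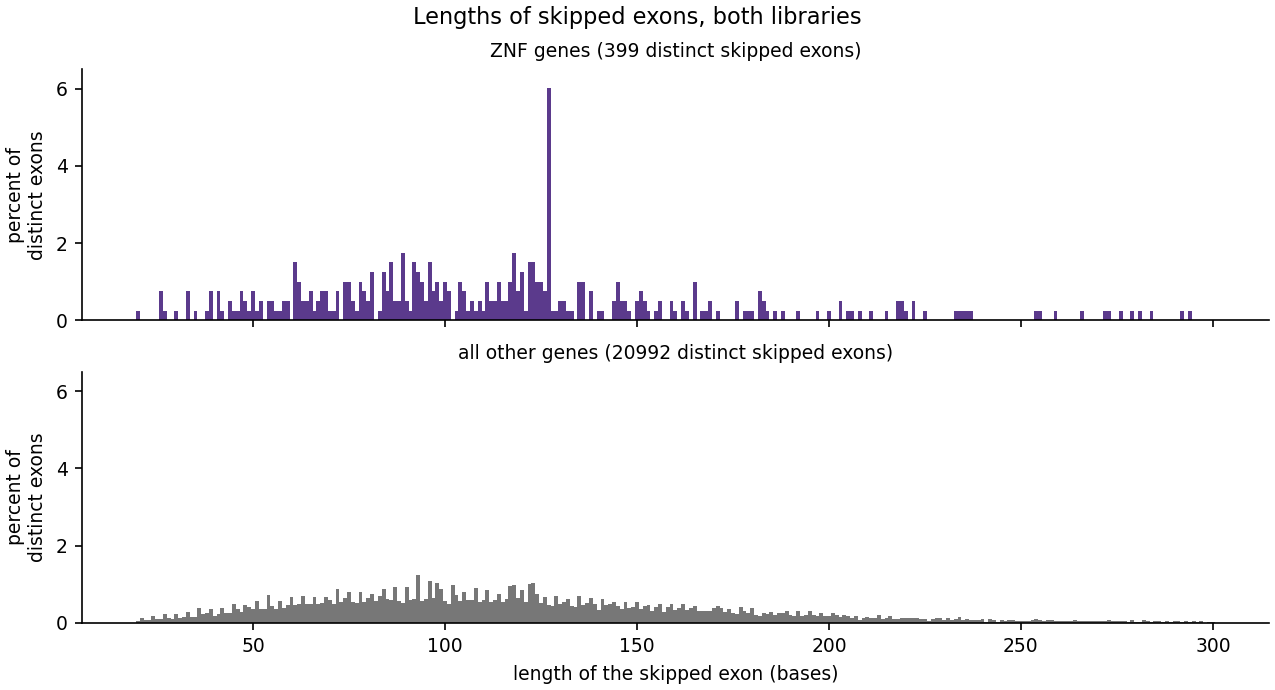
Lengths of distinct skipped exons in both libraries together, for ZNF genes above and all other genes below; the x axis gives the length in bases, from 20 to 300, and the y axis the percent of the distinct exons of the set. The bar at 127 bases stands at 6.02% in ZNF genes and 0.457% in other genes.

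KRAB exon skipping was listed at similar frequency in both genotypes. It made up 22 events in DCRT-KO cells, 7.51% of the ZNF skipping events (4.77 to 11.1%), in 20 distinct exons, and 20 events in WT cells, 7.84% (4.86 to 11.9%), in 16 distinct exons. In all there were 26 distinct exons in 25 genes, of which 22 had 127 bases, 10 were listed in both libraries and 0 had a whole number of codons, so each skip shifts the reading frame. Much of this rests on annotation: 10 of the 20 exons in DCRT-KO cells and 5 of the 16 in WT cells were listed through annotated transcripts alone. A library isoform that skips the exon was found for 8 exons in DCRT-KO cells and for 7 in WT cells, 13 in all. Both forms came from library isoforms for 6 exons in each library, 10 in all. With library isoforms required on each form, KRAB exons were 3.98% of the ZNF skipping events in DCRT-KO cells and 4.93% in WT cells.

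The 127-base KRAB exons whose inclusion and skipping were both carried by isoforms of a library are shown to let the conserved stretches be seen. They were read from GENCODE release 29 transcripts at hg38 positions, in the direction of transcription, and capitals mark the 45 bases that are identical in all 7 exons.
ZNF195, chr11:3371577-3371703, minus strand: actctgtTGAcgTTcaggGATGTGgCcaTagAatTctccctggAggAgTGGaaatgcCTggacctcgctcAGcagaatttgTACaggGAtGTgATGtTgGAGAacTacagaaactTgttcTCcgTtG
ZNF274, chr19:58211560-58211686, plus strand: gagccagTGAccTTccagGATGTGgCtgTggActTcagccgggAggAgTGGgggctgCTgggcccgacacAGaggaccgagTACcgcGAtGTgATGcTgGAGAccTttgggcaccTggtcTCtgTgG
ZNF283, chr19:43837053-43837179, plus strand: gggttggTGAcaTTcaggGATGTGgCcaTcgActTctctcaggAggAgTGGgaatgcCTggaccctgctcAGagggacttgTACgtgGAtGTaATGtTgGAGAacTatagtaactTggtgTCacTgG
ZNF561, chr19:9617045-9617171, minus strand: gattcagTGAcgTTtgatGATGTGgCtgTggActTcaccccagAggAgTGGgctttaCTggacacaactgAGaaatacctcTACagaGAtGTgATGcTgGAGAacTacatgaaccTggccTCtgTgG
ZNF584, chr19:58409965-58410091, plus strand: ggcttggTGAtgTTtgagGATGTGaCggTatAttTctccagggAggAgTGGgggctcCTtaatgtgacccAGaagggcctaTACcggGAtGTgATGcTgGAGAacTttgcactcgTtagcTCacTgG
ZNF621, chr3:40529319-40529445, plus strand: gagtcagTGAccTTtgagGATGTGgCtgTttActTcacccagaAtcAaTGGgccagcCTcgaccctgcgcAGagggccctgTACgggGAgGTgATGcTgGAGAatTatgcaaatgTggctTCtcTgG
ZNF655, chr7:99562368-99562494, plus strand: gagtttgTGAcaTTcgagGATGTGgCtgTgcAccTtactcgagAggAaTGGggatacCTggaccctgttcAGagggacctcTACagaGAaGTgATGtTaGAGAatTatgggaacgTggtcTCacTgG
Identity between pairs of these exons ran from 59.8 to 78.7% over 21 pairs, with a median of 66.9%.

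ZNF655, also the ZNF gene with most events, carried the best supported of these exons. In DCRT-KO cells 2 isoforms skipped it and 3 included it, and in WT cells 3 skipped it and 5 included it. ZNF584 had 1 isoform on each form in DCRT-KO cells, and 3 that skipped the exon and 2 that included it in WT cells. Both genes thus had both forms in both libraries. In ZNF195 the KRAB exon was listed in DCRT-KO cells alone, with 2 isoforms that skipped it and 2 that included it. ZNF274, which recruits SETDB1 to the 3′ ends of zinc finger genes, and ZNF621 were likewise listed in DCRT-KO cells, with 1 isoform on each form. ZNF283 was listed in WT cells, with 1 isoform that skipped the exon and 3 that included it, and so was ZNF561, with 1 and 2. ZNF286A and ZNF33B, whose KRAB exons have 115 and 145 bases, were listed in WT cells with 1 skipping isoform and 3 and 2 including isoforms. With 1 to 3 isoforms on the skipping form, a difference between the genotypes in any of these exons was not detectable at this depth.

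Skipped coding exons of KRAB genes held whole codons in a smaller share than those of the other ZNF genes, and these intervals do not overlap. Of distinct coding skipped exons, 24 of 71 had a whole number of codons in KRAB genes, 33.8% (23 to 46%), and 30 of 47 in the other ZNF genes, 63.8% (48.5 to 77.3%); in all other genes the share was 47.7%. The exons of KRAB genes include the 26 KRAB exons, 0 of which had a whole number of codons and which the other ZNF genes cannot have. The gap therefore restates in part the KRAB exon skipping above. The share without these exons was not computed, so the intervals are not shown to stay apart without them. By library, whole codons were found in 33.9% of the coding skipping events of KRAB genes in DCRT-KO cells and 31.2% in WT cells. Among those of the other ZNF genes the shares were 65.9% and 65.5%. ZNF skipping also fell less often on coding exons: wholly coding exons took 33.1% of the skipping events in DCRT-KO cells and 30.2% in WT cells, against 53.2% and 49.1% elsewhere. Untranslated exons took 17.7% and 19.6%, against 7.59% and 9.74%.

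Few skipped exons touched the fingers. Of 118 distinct coding skipped exons, 13 held the start of a finger, 11% (6 to 18.1%). They lay in 7 genes, ZNF143, ZNF280C, ZNF346, ZNF384, ZNF410, ZNF532 and ZNF692, of which 0 were KRAB genes. ZNF384, a transcription factor of the nuclear matrix, had 3 such exons, of 159, 183 and 225 bases, with 2, 2 and 3 finger starts. ZNF346, a protein whose fingers bind double-stranded RNA, had 4 by position. Those of 186 and 234 bases end at the same position and differ only in their acceptor. ZNF410, an activator of the chromatin remodeller gene CHD4, had 2, of 90 and 126 bases. In ZNF143, an activator of many promoters, the exon had 180 bases and 2 finger starts.

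Among events shared by both libraries, the one with most isoforms on its rarer form lay in ZNF384. Its 48-base coding exon was skipped by 8 and included by 11 isoforms in DCRT-KO cells, and skipped by 5 and included by 9 in WT cells. Its 183-base finger exon was skipped by 20 and included by 4 isoforms in DCRT-KO cells, and skipped by 13 and included by 3 in WT cells. A 93-base exon was skipped by 16 and included by 8 isoforms in DCRT-KO cells, against 12 and 2 in WT cells. All 3 have a whole number of codons, and in both genotypes the skipping isoforms of the finger exon and of the 93-base exon outnumbered the including ones. A 75-base coding exon of ZNF346 was skipped by 7 and included by 3 isoforms in DCRT-KO cells, against 8 and 2 in WT cells. The exons are printed to show what each pair of isoforms differs by, all in lower case, since no base is singled out.
ZNF384, 48 bases, chr12:6678663-6678710, minus strand: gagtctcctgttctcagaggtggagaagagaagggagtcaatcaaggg
ZNF384, 183 bases, chr12:6672350-6672532, minus strand: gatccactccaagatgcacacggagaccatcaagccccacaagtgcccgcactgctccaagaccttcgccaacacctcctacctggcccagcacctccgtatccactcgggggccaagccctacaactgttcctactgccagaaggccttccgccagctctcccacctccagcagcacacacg
ZNF346, 75 bases, chr5:177023160-177023234, plus strand: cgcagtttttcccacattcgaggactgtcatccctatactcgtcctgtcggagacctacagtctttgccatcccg
ZNF384, 93 bases, chr12:6677167-6677259, minus strand: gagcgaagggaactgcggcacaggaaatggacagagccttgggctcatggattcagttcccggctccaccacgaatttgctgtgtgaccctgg

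Other shared events with at least 2 isoforms on each form in both libraries were of several kinds. An untranslated 58-base exon of ZNF664 was skipped by 6 and included by 3 isoforms in DCRT-KO cells, against 6 and 4 in WT cells. A 330-base annotated intron of ZNF215 was retained in 3 and spliced in 3 isoforms in DCRT-KO cells, against 2 and 4 in WT cells. In ZNF655 an 86-base exon was skipped by 2 and included by 4 isoforms in DCRT-KO cells, against 4 and 2 in WT cells. These are isoform counts, not read counts, and no difference between the genotypes was tested on them.

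Sharing of whole events was limited. An event with the same type, chromosome and positions in the other list was found for 198 events in DCRT-KO cells, 34.6% of them (30.7 to 38.7%). In WT cells it was found for 201, 39.6% (35.4 to 44.1%). Among all other events the shares were 30.5% and 35.6%. By type, sharing was 42% (36.3 to 47.9%) of the DCRT-KO and 48.6% (42.3 to 54.9%) of the WT skipping events, against 37.3% and 49.6% elsewhere. For retention it was 16% (9.43 to 24.7%) and 18% (10.6 to 27.5%), against 23.5% and 22.6% elsewhere, so for both types the ZNF intervals reach the background. The shared events were 181 distinct ones in 95 genes. Of these, 84 (46.4%) had a library isoform on each form in both libraries and 11 had at least 2.

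Events also lay at different places in ZNF genes than elsewhere. Before the coding span lay 27.6% of the ZNF skipping events in DCRT-KO cells (22.6 to 33.1%) and 27.8% in WT cells (22.4 to 33.8%), against 12.3% and 15.6% of the others. In the last coding exon, where most fingers are, lay 2 skipping events in DCRT-KO cells and 0 in WT cells. Retention events were found there more often: 17 in DCRT-KO cells, 17% of the ZNF retention events (10.2 to 25.8%), and 17 in WT cells, 19.1% (11.5 to 28.8%), against 7.55% and 8.88% elsewhere. After the coding span lay 3% and 3.37% of the ZNF retention events, against 12.5% and 13.3%. For alternative donors, 31.1% of the events in DCRT-KO cells (20.8 to 42.9%) and 50% in WT cells (35.8 to 64.2%) lay before the coding span, and these intervals overlap.

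**Figure D3:**
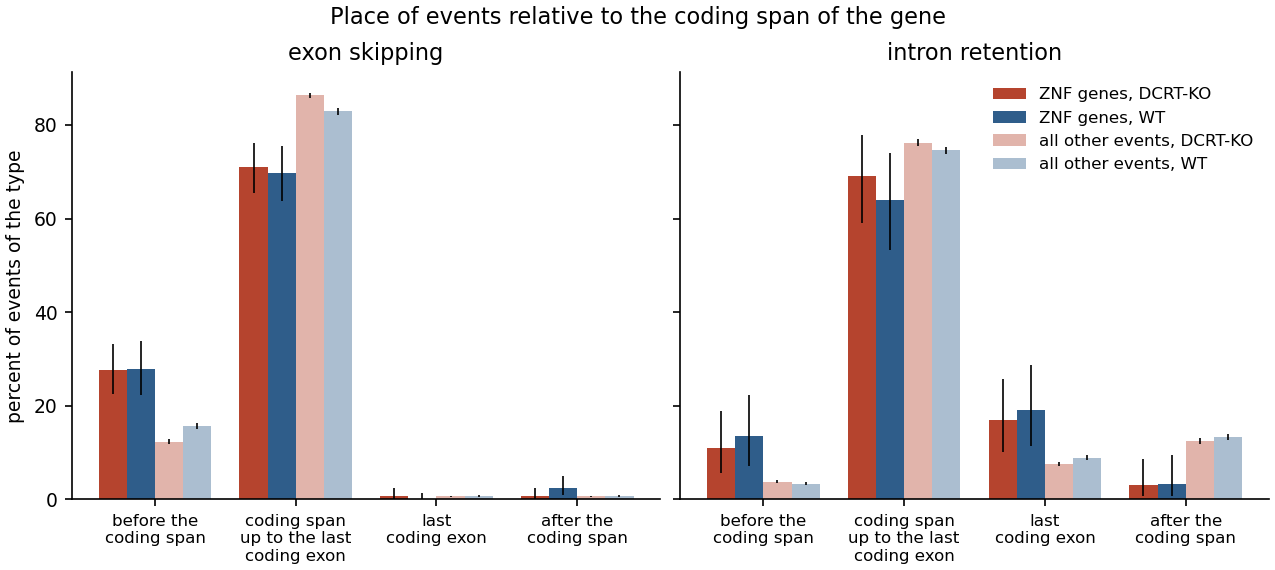
Place of exon skipping (left) and intron retention (right) relative to the coding span of the gene, in percent of the events of the type; full colours are ZNF genes, pale colours all other events, red DCRT-KO and blue WT, and lines are 95% exact binomial intervals. Of ZNF skipping events 27.6% and 27.8% lie before the coding span, and of ZNF retention events 17% and 19.1% lie in the last coding exon.

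Retention events were either of annotated introns or of stretches whose 2 ends do not match an annotated intron. Of the 34 in the last coding exon, 17 in each library, 32 were not annotated introns. An annotated intron was retained in 62 of the 100 ZNF retention events in DCRT-KO cells, 62% (51.7 to 71.5%), and in 51 of 89 in WT cells, 57.3% (46.4 to 67.7%), against 48.1% and 46.8% elsewhere. Of the 38 others in each library, 30 were stretches inside an annotated exon that at least 1 isoform lacked. Some of these stretches overlap an annotated intron and differ from it in their ends, as in ZNF3 and ZNF446. How many do so was not computed. Of these 60, 31 (51.7%) touched the last coding exon, against 16.2% of the 10535 such events of other genes. Their ends as listed were GT and AG, the usual ends of an intron, in 16 of 60 (26.7%, 16.1 to 39.7%), against 13.9%. Their ends repeated each other over at least 8 bases, so that the junction could slide by that much with no change in sequence, in 8 of 60 (13.3%, 5.94 to 24.6%), against 6.85%. These were 6 of 30 in DCRT-KO cells, 20% (7.71 to 38.6%), against 7.24% elsewhere. In WT cells they were 2 of 30, 6.67% (0.818 to 22.1%), against 6.49%, so in WT cells the share is that of the background. In the ZFP, ZBTB, ZSCAN and ZKSCAN genes, 6 of 14 such stretches (42.9%, 17.7 to 71.1%) touched the last coding exon. GT and AG ends were listed for 5 of the 14 (35.7%, 12.8 to 64.9%), so neither trait was seen in ZNF genes alone.

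The missing stretch was a multiple of the finger period of 84 bases in 4 of the 60, 6.67% (1.85 to 16.2%), against 145 of 10535 in other genes, 1.38% (1.16 to 1.62%). In the ZFP, ZBTB, ZSCAN and ZKSCAN genes it was so in 0 of 14, with an exact upper limit of 23.2%. The 4 stretches were in ZNF350 and ZNF3 in DCRT-KO cells, with 84 and 168 bases, and in ZNF664 and ZNF283 in WT cells, with 168 and 252 bases. Each was missing from 1 isoform, and the ends repeated each other over 13, 17, 31 and 3 bases. ZNF350 is a partner of BRCA1. Finger repeats of this kind are near copies of each other, and the missing stretch and the finger unit next to it are printed to show how alike they are. Capitals mark the bases identical in the pair, which were 76 of 84 in ZNF664 (90.5%), 69 in ZNF3 (82.1%), 63 in ZNF350 (75%) and 58 in ZNF283 (69%).
ZNF664, unit before the missing stretch, chr12:124012633-124012716, plus strand: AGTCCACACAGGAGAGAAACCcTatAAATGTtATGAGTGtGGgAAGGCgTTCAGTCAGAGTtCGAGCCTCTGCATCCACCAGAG
ZNF664, last unit of the missing stretch, chr12:124012801-124012884, plus strand: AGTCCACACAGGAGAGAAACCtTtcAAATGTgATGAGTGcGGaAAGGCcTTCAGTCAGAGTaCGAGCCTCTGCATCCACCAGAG
ZNF3, unit before the missing stretch, chr7:100071562-100071645, minus strand: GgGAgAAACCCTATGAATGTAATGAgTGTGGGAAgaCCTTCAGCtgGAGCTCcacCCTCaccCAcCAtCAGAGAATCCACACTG
ZNF3, last unit of the missing stretch, chr7:100071394-100071477, minus strand: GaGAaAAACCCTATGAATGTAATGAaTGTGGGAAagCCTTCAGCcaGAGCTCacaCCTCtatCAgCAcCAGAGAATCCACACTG
ZNF350, first unit of the missing stretch, chr19:51965407-51965490, minus strand: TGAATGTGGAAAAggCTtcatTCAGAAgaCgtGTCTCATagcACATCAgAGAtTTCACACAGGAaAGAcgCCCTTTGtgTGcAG
ZNF350, unit after the missing stretch, chr19:51965323-51965406, minus strand: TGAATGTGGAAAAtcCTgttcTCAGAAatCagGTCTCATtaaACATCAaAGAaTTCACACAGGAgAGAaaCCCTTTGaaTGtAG
ZNF283, first unit of the missing stretch, chr19:43848131-43848214, plus strand: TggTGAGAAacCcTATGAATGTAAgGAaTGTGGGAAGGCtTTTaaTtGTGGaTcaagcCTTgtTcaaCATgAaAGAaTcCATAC
ZNF283, unit after the missing stretch, chr19:43848383-43848466, plus strand: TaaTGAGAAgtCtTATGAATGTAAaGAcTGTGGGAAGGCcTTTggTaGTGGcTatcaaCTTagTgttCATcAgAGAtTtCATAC
Of the 4, 0 had GT and AG at their ends as listed, and the part of the repeated ends in the missing stretches was not tested.

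Alternative acceptors of ZNF genes were often 3 bases apart. Such tandem acceptors add or drop 1 codon where they lie in coding sequence. They made up 17 of 84 acceptor events in DCRT-KO cells, 20.2% (12.3 to 30.4%), and 18 of 83 in WT cells, 21.7% (13.4 to 32.1%), against 7.52% and 8.48% elsewhere. The difference from other genes rests in part on annotated transcripts: with library isoforms on each form the shares were 8 of 52 in DCRT-KO cells, 15.4% (6.88 to 28.1%), and 4 of 46 in WT cells, 8.7% (2.42 to 20.8%), against 6.96% and 7.58%. There were 21 distinct sites, 13 in both libraries, 4 in DCRT-KO cells alone and 4 in WT cells alone. The 3 bases were coding in an annotated transcript in 17 sites and in none in 4, those of ZNF227, ZNF35, ZNF576 and ZNF664. In 3 sites the acceptor opened a KRAB exon. The 3 bases between the acceptors were CAG in 16 sites, TAG in 3 and AAG in 2.

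In 3 genes both acceptors were used by isoforms of both libraries. ZNF512 used the upstream acceptor in 9 and the downstream one in 5 isoforms in DCRT-KO cells, against 4 and 3 in WT cells. ZNF692 had 1 isoform on each in DCRT-KO cells, and 3 on the upstream and 1 on the downstream one in WT cells. The site of ZNF664, before its coding span, had 9 isoforms on the upstream and 1 on the downstream acceptor in DCRT-KO cells, against 10 and 3 in WT cells. The bases that open the exon are printed from the upstream acceptor on, with the 3 bases that the downstream acceptor leaves out in capitals.
ZNF512, chr2:27598067-27598096, plus strand: TAGcaggacccagtgctccataaaggataa
ZNF692, chr1:248855917-248855946, minus strand: TAGtgagcctgatgcccccagactactgcc
ZNF664, chr12:123988043-123988072, plus strand: CAGgatcctaaggcctttgtagtccttcag

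Genes with more events in DCRT-KO cells and genes with more in WT cells were close in number. Of the 211 genes, 116 had events in both libraries, 55% (48 to 61.8%), against 63.9% of other genes. Events in DCRT-KO cells alone were found in 49 genes, 23.2%, where 20.2% of all genes did so, and events in WT cells alone in 46, 21.8%, where 16.2% of all genes did so. More events in DCRT-KO cells were listed for 92 genes, 43.6%, against 52.4% of all genes, and more in WT cells for 85, 40.3%, against 37.4% of all genes. The median difference, DCRT-KO minus WT, was 0 events in ZNF genes and 1 in other genes.

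A 2-fold rule stands in for a test: at least 5 events in the higher library and at least 2 times those of the other. Of the 211 genes, 52 had at least 5 events in a library and 159 did not. Of the 52, 22 (42.3%) were higher in DCRT-KO cells, where 36.9% of all 3559 such genes were, and 8 (15.4%) were higher in WT cells, where 20.1% were. In either direction it was 30 (57.7%), where 57% of all such genes were called, so the ZNF share is that of the background.

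**Figure D4:**
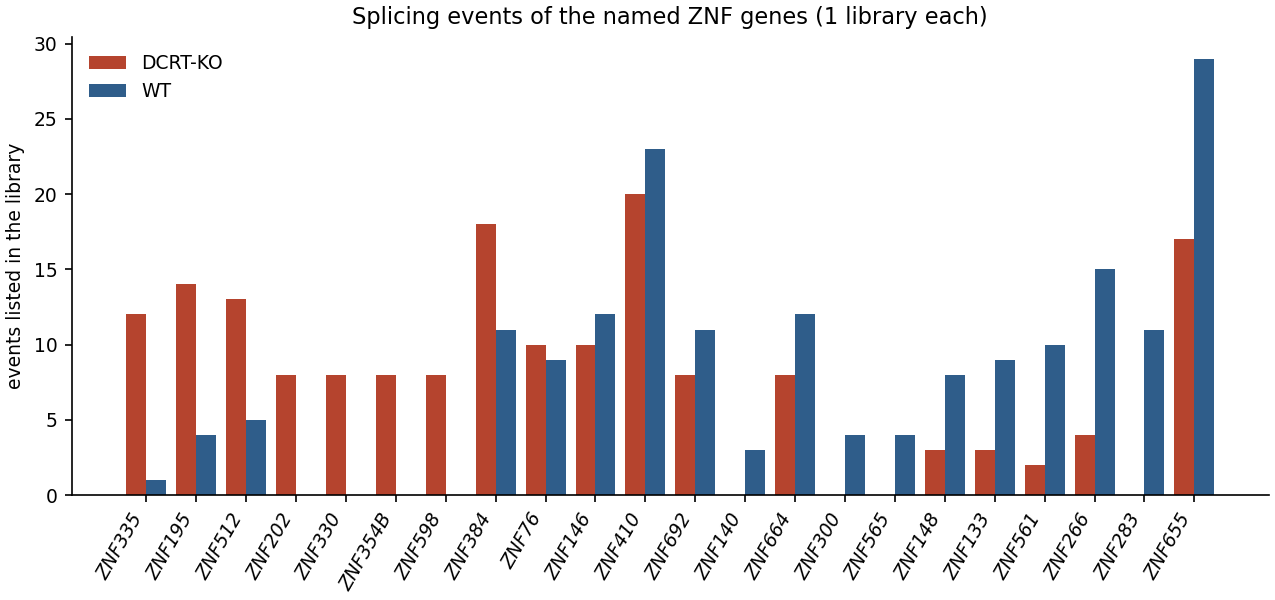
Events per library of the ZNF genes with most events or the largest differences, ordered by the difference DCRT-KO minus WT; red bars are DCRT-KO and blue bars WT, 1 library each, with no error since there are no replicates. ZNF335 stands at 12 and 1, ZNF283 at 0 and 11, and ZNF655 at 17 and 29.

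Among genes with more events in DCRT-KO cells, ZNF335, a subunit of a histone methyltransferase complex, had 12 events there and 1 in WT cells. Its DCRT-KO events came from 18 isoforms and held 6 retained introns and 3 skipped exons, and its WT event from 4 isoforms. ZNF195 had 14 events in DCRT-KO cells and 4 in WT cells, of which 12 and 4 were skipped exons. Annotated transcripts alone formed 4 of the 14 and 1 of the 4. ZNF512 had 13 events in DCRT-KO cells and 5 in WT cells, from 14 and 11 isoforms.

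ZNF202, ZNF330, ZNF354B and ZNF598 each had 8 events in DCRT-KO cells and 0 in WT cells. ZNF202 represses genes of lipid metabolism, and its 8 events held 4 skipped exons and 3 alternative donors from 8 isoforms. ZNF598 is a ubiquitin ligase that senses collided ribosomes, and 5 of its 8 events were retained introns, of which 2 rows name the same intron. ZNF330, a nucleolar protein with no C2H2 pattern, had 3 retained introns and 2 skipped exons. The WT list holds 0 isoforms of these 4 genes, so it does not show whether WT cells expressed them without alternative splicing.

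Among genes with more events in WT cells, ZNF283 had 0 events in DCRT-KO cells and 11 in WT cells, of which 8 were skipped exons, from 6 isoforms. ZNF266 had 4 events in DCRT-KO cells and 15 in WT cells. Of these 0 and 5 were retained introns and 1 and 5 alternative donors, and the 5 retained introns lie within chr19:9418631-9419217 (hg38, minus strand). ZNF561 had 2 and 10 events and ZNF133 had 3 and 9. ZNF148, which binds GC-rich promoters, had 3 and 8, and its 3 events in DCRT-KO cells were formed by annotated transcripts alone, with 0 library isoforms. ZNF300 and ZNF565 had 0 events in DCRT-KO cells and 4 in WT cells, and ZNF140 had 0 and 3.

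The genes with most events in all were not called by the 2-fold rule, apart from ZNF266. ZNF655 had 17 events in DCRT-KO cells and 29 in WT cells, from 12 and 16 isoforms, and 7 distinct events were shared. Its 86-base coding exon upstream of the KRAB exon, described above with 2 skipping isoforms in DCRT-KO cells and 4 in WT cells, reads as follows.
ZNF655, 86 bases, chr7:99561888-99561973, plus strand: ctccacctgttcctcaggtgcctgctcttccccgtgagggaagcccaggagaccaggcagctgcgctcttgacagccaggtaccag
ZNF410 had 20 events in DCRT-KO cells and 23 in WT cells, with 10 distinct events shared, and ZNF384 had 18 and 11. ZNF146, a protein made of fingers alone, had 10 and 12, ZNF664 had 8 and 12, and ZNF76, the close relative of ZNF143, had 10 and 9. ZNF692, also known as AREBP, had 8 and 11, and 0 and 7 of these were retained introns.

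KRAB genes and the other ZNF genes differed in the balance between genotypes. KRAB genes had 305 events in DCRT-KO cells and 320 in WT cells, a ratio of 0.953 (0.812 to 1.12). The other ZNF genes had 267 and 187, a ratio of 1.43 (1.18 to 1.73), and these intervals do not overlap. The interval of the other ZNF genes holds the 1.21 of all other events, while that of KRAB genes lies below it. By position, ZNF genes on chromosome 19, 94 in number, had 168 events in DCRT-KO cells and 194 in WT cells, a ratio of 0.866 (0.7 to 1.07). Those on other chromosomes had 404 and 313, a ratio of 1.29 (1.11 to 1.5), and genes on chromosome 19 that are not ZNF genes had 2127 and 1924, a ratio of 1.11 (1.04 to 1.18). KRAB genes had a ratio of 0.827 (0.658 to 1.04) on chromosome 19 and 1.1 (0.876 to 1.39) elsewhere, and these intervals overlap. The cell type marker counts given above differ between the same libraries, and their part in this balance was not tested. The split by KRAB and chromosome was chosen after values were seen.

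**Figure D5:**
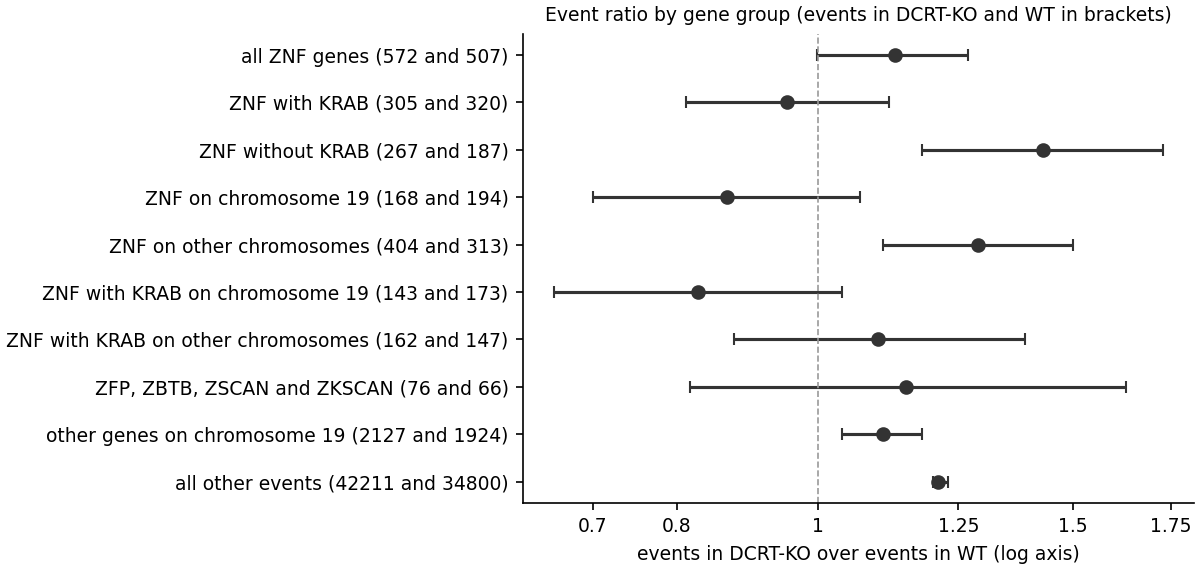
Events in DCRT-KO over events in WT by gene group, on a log axis; points are ratios of 1 library over 1 library, lines are 95% exact intervals for counting error, and the dashed line marks a ratio of 1. ZNF genes with KRAB stand at 0.953, those without at 1.43 and all other events at 1.21.

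The machinery through which KRAB domains repress leaned to DCRT-KO cells, as most genes of the lists did. Of 23 corepressor genes, 21 had events, 156 in all in DCRT-KO cells and 100 in WT cells. The ratio of these events was 1.56, against 1.21 over all events. Of the 21 genes, 14 had more in DCRT-KO cells and 5 more in WT cells, where 52.4% and 37.4% of all genes did so. The median difference was 1, which is also the median over all genes, and the lean of this list was not tested. TRIM28, the corepressor that KRAB domains bind, had 4 events in DCRT-KO cells and 0 in WT cells. SETDB1 had 2 and 2, and CHD4, a remodeller of the NuRD complex, had 21 and 8. ATRX, a remodeller that deposits a histone variant together with DAXX, had 11 and 0, while DAXX had 21 and 13 and the deacetylase HDAC1 had 17 and 21. The maintenance methyltransferase DNMT1 had 12 and 6 and PPHLN1, a subunit of the HUSH silencing complex, had 14 and 5.

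The related C2H2 families had a similar ratio and similar shares of skipping and retention, while the shares of DCRT-KO acceptor and donor events also listed in WT cells had intervals apart from those of ZNF genes. The ZFP, ZBTB, ZSCAN and ZKSCAN genes had 76 events in DCRT-KO cells and 66 in WT cells in 36 genes, a ratio of 1.15 (0.817 to 1.63). Skipping made up 47.4% of their events in DCRT-KO cells and 48.5% in WT cells, and retention 19.7% and 18.2%. Of the acceptor events in DCRT-KO cells, 44% (33.2 to 55.3%) were also in the WT list in ZNF genes, against 1 of 15 in the related families, 6.67% (0.169 to 31.9%). Of the donor events in DCRT-KO cells it was 24.3% (15.1 to 35.7%) in ZNF genes, against 7 of 8, 87.5% (47.3 to 99.7%). For WT cells the intervals overlapped in both types. They were 47% (35.9 to 58.3%) of the ZNF acceptor events against 10% (0.253 to 44.5%), and 34.6% (22 to 49.1%) of the ZNF donor events against 70% (34.8 to 93.3%). Among all other events the DCRT-KO and WT shares were 31.5% and 37.6% for acceptors, and 28.4% and 33.9% for donors. The ZNF donor intervals hold these donor shares, and the values of the related families rest on few events. A whole number of codons was found in 46% (38.4 to 53.7%) of the coding skipping events of ZNF genes, against 3 of 19 in the related families, 15.8% (3.38 to 39.6%), with intervals that overlap. Of the related genes, 7 had at least 5 events in a library. Of these, 3 (42.9%) were higher in DCRT-KO cells, against 36.9% of all 3559 such genes, and 3 (42.9%) in WT cells, against 20.1%. In either direction it was 6 (85.7%), against 57% of all such genes, and the number of genes is small.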

How the data were processed

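The deposited tables list alternative splicing events, 1 row per event, as splice positions with the isoforms and annotated transcripts on each of 2 forms, per the file headers; they hold no read counts. Per the submitters' processing notes, minimap2 and hg38 were used; the isoform builder and the event caller are not stated there. Depth in reads is unknown, and the number of listed isoforms limits precision. Groups were 1 DCRT-KO and 1 WT library, so no test between genotypes was made.

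Gene identifiers were named from a symbol table (99.9% of 8028 matched), and positions were placed on GENCODE release 29 (GRCh38), whose transcripts also gave the printed sequences. Which form holds the exon or intron was checked on annotated transcripts: 99.4% of 37914 listings in skipping and 99.1% of 20621 in retention events followed the order used. KRAB domains were called from at least 16 of 40 residues identical to a consensus built from 183 annotated ZNF proteins. Shares have exact Clopper-Pearson 95% intervals and ratios exact conditional binomial ones, computed with Python 3.11.15 and scipy 1.17.1 and checked on simulated data. Reads of near-identical paralogs could be placed on the wrong gene.

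Named genes are the 8 with most events, the 6 with the largest differences each way, the 4 with most events in each library alone, the 6 best supported shared events and stretches of 84 bases or a multiple. The members and lists were chosen with earlier results of these data known. Alternatives were repeated rows counted once, isoform minimums, annotated introns only, other event minimums and leaving out the top gene.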

Additional observations from a re-analysis of the deposited data

How the results depend on the processing

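No paired analysis was possible because each genotype had 1 library. Of 134 alternative values for the main results, 107 stayed within the interval of the reported value or within 1.5 times a count, and every ratio computed kept its direction. The setting with at least 1 library isoform on each form, and all settings for KRAB genes, chromosome 19, KRAB exons and tandem acceptors, were added after seeing the data.

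Where each form had to be carried by 2 or more library isoforms, few events were left. ZNF genes then held 0.717% of the DCRT-KO and 0.85% of the WT events, 30.3% of the ZNF genes left had events in both libraries, and 27.5% of the DCRT-KO and 32.4% of the WT events were shared. Under that setting skipping took 67.6% of the WT events, retention 8.82% and alternative donors 5.88%, mutually exclusive exons had 0 in both libraries, and 0 genes were called in either direction. With annotated introns only, the ZNF shares were 1.47% in DCRT-KO cells and 1.63% in WT cells. With a library isoform on at least 1 form, 30.6% and 34.1% of the events were shared, and by any overlap 44.2% and 50.7%. A minimum of 3 events called 41 genes higher in DCRT-KO cells and 21 higher in WT cells, a minimum of 10 called 5 and 3, and scaling to list length called 20 and 11. With a library isoform on each form, retention took 22.2% of the ZNF events in DCRT-KO cells and 23.9% in WT cells, skipping 43.4% in WT cells, KRAB exons 3.98% of skipping in DCRT-KO cells, and acceptors 3 bases apart 8.7% in WT cells. Requiring library isoforms, or annotated introns, leaves fewer events by construction.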
